A study of Mus musculus with 41 samples.

Results

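The genes described here cut, protect and crosslink the extracellular matrix of the kidney: the matrix metalloproteinases (Mmp), the ADAMTS proteases and ADAMTS-like proteins (Adamts, Adamtsl), the tissue inhibitors of metalloproteinases (Timp) and the lysyl oxidases (Lox, Loxl). They were picked by symbol, with earlier results of these data known. The rule took protein-coding genes whose symbol begins with Mmp and a digit or with Adamts. It also took Timp1 to Timp4, Lox and Loxl1 to Loxl4. The rule found 55 of the 48795 genes listed in the count table, made up of 22 Mmp, 19 Adamts, 5 Adamtsl, 4 Timp and 5 Lox genes. Mmp1a also has such a symbol but is annotated as a polymorphic pseudogene and was left out. All values are of messenger RNA, and protein and enzyme activity were not measured.

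The study followed mouse kidneys after unilateral ischemia-reperfusion injury (UIRI), in which the blood supply of 1 kidney is stopped for a time and then restored, with and without later removal of the opposite kidney (nephrectomy, Nx). The first cohort had 4 groups of 6 libraries, each a kidney of a male mouse of 8 to 10 weeks. Its UIRI+Nx d7 group had 21 min of left-kidney ischemia at a core temperature of 34 °C and nephrectomy of the opposite kidney on day 3, and was taken on day 7. Its UIRI d7 group had the same ischemia and a sham nephrectomy on day 3 and was taken on day 7, and its UIRI d3 group had the same ischemia and was taken on day 3. Its Control group had no UIRI. Neither strain nor genotype is given for these 24 libraries. The second cohort carries the mark WT (wild type) and had 4 UIRI+Nx d7, 6 UIRI d7 and 6 UIRI d3 libraries and no Control, and the labels used here do not give its sex, age, ischemia time or day of nephrectomy. RNA came from cryosections of a kidney pole in both cohorts, and 3′ ends were sequenced and counted per gene.

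Matrix metalloproteinases are zinc proteases, secreted or bound to the cell surface, that together cut collagens, elastin, laminins and many signalling proteins. ADAMTS proteases cut proteoglycans such as versican and aggrecan or trim the ends of procollagens, and the ADAMTS-like proteins lack the protease domain and bind microfibrils. TIMPs block these proteases, TIMP3 bound to the matrix and the others soluble. Lysyl oxidases oxidise lysines of collagen and elastin so that the fibres become crosslinked. In injured kidneys these genes are known chiefly from fibrosis, the build-up of matrix between the tubules.

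Each library held between 5090418 and 33362940 counts, and levels are given as CPM, the counts scaled to 1000000 per library after correction of the library sizes. Of the 55 genes, 41 passed the filter on low counts (about 10 counts at the median library size, in about as many libraries as the smallest group holds) in both cohorts: 14 of the 22 Mmp, 14 of the 19 Adamts, 4 of the 5 Adamtsl and all Timp and Lox genes. Since a gene high in a single group passes this filter, counts among the 41 are descriptions of these genes. The 14 below it were Mmp1b, Mmp10, Mmp20, Mmp21, Mmp24, Mmp25, Mmp27, Mmp28, Adamts3, Adamts13, Adamts18, Adamts19, Adamts20 and Adamtsl3, none of which had more than 22 counts in any library. Mmp1b and Mmp21 had 0 counts in all 40 libraries. For Mmp21 this allows up to 0.00528 CPM of the summed 568565107 counts (3 counts, counting error only). The 3′ ends of Mmp1b and Mmp12 overlap on opposite strands, where reads of the genes could not be told apart. The 0 of Mmp1b therefore sets no such limit.

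A pair of libraries stood apart from their groups. UIRI d3 replicate 3 of the first cohort had a summed level of 8 neutrophil marker genes of 2010 CPM, against a median of 118 CPM in its group, and was the highest of that group for Timp1, Lox, Mmp3, Mmp7, Mmp8 and Mmp9. UIRI d7 replicate 4 had the lowest median correlation with its own group (0.886) and held 1720 CPM of Timp2. The values of Mmp3, Mmp7, Mmp8, Mmp9 and Timp2 that rest most on them are given without them as well. Libraries were also put into blocks by the numbers in the column names, whose meaning the labels do not give, with no UIRI d7 library in 1 block of the first cohort and all UIRI d3 libraries of the second cohort in a single block.

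Compared with Control kidneys, most of these genes were more abundant at each time after ischemia. Of the 41 tested, 29 rose and 2 fell in UIRI+Nx d7 kidneys, 31 rose and 1 fell in UIRI d7 kidneys, and 27 rose and 1 fell in UIRI d3 kidneys (edgeR quasi-likelihood test, Benjamini-Hochberg adjusted p under 0.05). In each comparison all 5 lysyl oxidases rose, Timp1 and Timp2 rose and Timp3 fell. In all, 25 genes rose in all 3 injured groups: 10 Mmp genes (Mmp2, Mmp3, Mmp7, Mmp8, Mmp9, Mmp11, Mmp12, Mmp14, Mmp19 and Mmp23), 5 Adamts genes (Adamts1, Adamts2, Adamts4, Adamts7 and Adamts12), 3 Adamtsl genes (Adamtsl1, Adamtsl4 and Adamtsl5), 5 Lox and 2 Timp genes.

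The genes called made up 75.6%, 78% and 68.3% of the 41 in UIRI+Nx d7, UIRI d7 and UIRI d3 kidneys against Control. Over all 15701 genes tested, 31.3%, 39.6% and 32.7% were called in the same comparisons (17.3%, 21.5% and 17.8% higher, 14%, 18.1% and 14.9% lower). The median log2 fold change of the 41 was 1.46, 1.62 and 1.48, against 0.02, 0.04 and 0 over all genes. For 24, 23 and 17 of the 41 the libraries of the injured group did not overlap those of Control, as for 17.1%, 20.5% and 18.4% of all genes tested.

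**Figure D1:**
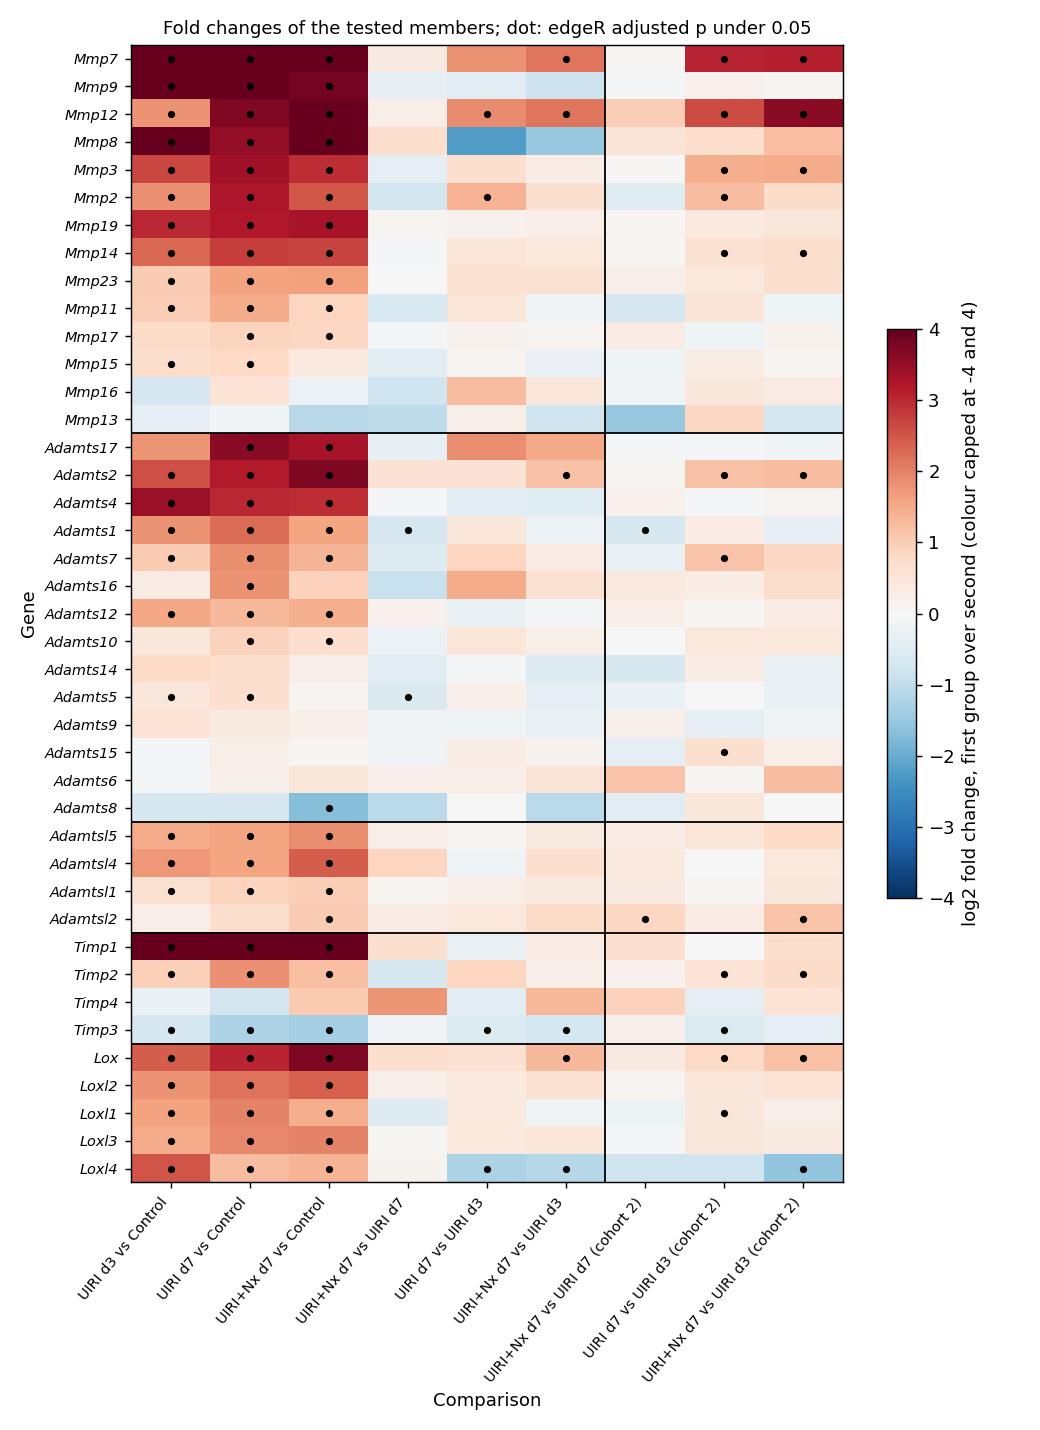
Log2 fold changes of the 41 tested genes (rows, grouped by family) in the 9 comparisons (columns), colour capped at -4 and 4, with a dot where the edgeR adjusted p was under 0.05. The comparisons with Control are mostly red with dots, while UIRI+Nx d7 over UIRI d7 holds 2 dots in each cohort.

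Levels of cell type marker genes moved with these levels. The summed level of 8 fibroblast marker genes spanned 2260 to 3070 CPM in UIRI+Nx d7, 1620 to 2680 in UIRI d7 and 1540 to 2370 in UIRI d3 kidneys, against 373 to 494 CPM in Control kidneys. For 10 macrophage markers the ranges were 1210 to 2240, 1540 to 3310 and 477 to 963 CPM in the same order, against 185 to 342 CPM in Control. For 8 proximal tubule markers they were 2130 to 4820, 2690 to 3740 and 4070 to 4750 CPM, against 9080 to 12000 CPM in Control. Of these lists 8, 7 and 7 of the 8 fibroblast and 8, 10 and 9 of the 10 macrophage genes rose, and 6, 8 and 7 of the 8 proximal tubule genes fell. In whole tissue, more or fewer cells of a type and more or less RNA per cell cannot be told apart, and the part of these marker levels in the results was not tested.

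Among the inhibitors, Timp1, a soluble inhibitor made by many stromal cells, had the largest rise. It spanned 32.6 to 146 CPM (median 85.6) in UIRI+Nx d7, 45.9 to 85.8 (median 48) in UIRI d7 and 35.9 to 123 (median 54.8) in UIRI d3 kidneys, against 0.553 to 1.9 CPM (median 1.18) in Control kidneys. Every injured kidney lay far above every Control kidney. The log2 fold change was 6.15 (SE 0.41, adjusted p = 2.07e-11), 5.52 (adjusted p = 7.3e-11) and 5.82 (adjusted p = 3.85e-11) in edgeR. Timp1 lies on chromosome X at 20870166-20874735 (GRCm38, plus strand) inside Syn1 on the other strand, and Syn1 held 0.315 CPM in UIRI+Nx d7 and 0.00638 CPM in Control kidneys.

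Timp3, the inhibitor held in the matrix, which also blocks several ADAMTS proteases, fell in all 3 injured groups. It spanned 1120 to 1440 CPM (median 1320) in UIRI+Nx d7, 1210 to 1840 (median 1330) in UIRI d7 and 1670 to 2490 (median 2160) in UIRI d3 kidneys, against 2840 to 4080 CPM (median 3280) in Control kidneys. No injured kidney reached the lowest Control kidney. Its log2 fold change was -1.37 (SE 0.15, adjusted p = 9.38e-08), -1.23 (adjusted p = 3.57e-07) and -0.69 (adjusted p = 0.00082) in edgeR. The gene lies at chr10:86300372-86349506 (GRCm38, plus strand) and shares its locus with Syn3 on the other strand, which held 1.57 CPM in UIRI+Nx d7 and 4.15 CPM in Control kidneys.

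Timp2, which inhibits most MMPs and also helps MMP14 to activate MMP2, rose less. It spanned 366 to 879 CPM (median 493) in UIRI+Nx d7, 429 to 1720 (median 738) in UIRI d7 and 221 to 817 (median 427) in UIRI d3 kidneys, against 121 to 329 CPM (median 230) in Control kidneys. UIRI d3 kidneys overlapped the Control range and the other injured kidneys lay above it. The log2 fold change was 1.19 (adjusted p = 0.00499), 1.82 (adjusted p = 5.51e-05) and 0.96 (edgeR adjusted p = 0.0211), and the last was lost without Control replicate 1 or without UIRI d3 replicate 2. Without UIRI d7 replicate 4 the UIRI d7 value was 1.47 (edgeR adjusted p = 0.000174). Timp4 was scarce and was called in none of the comparisons, with medians of 0.815, 0.137 and 0.479 CPM in UIRI+Nx d7, UIRI d7 and UIRI d3 kidneys, against 0.53 CPM in Control kidneys.

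The 5 lysyl oxidases rose together in all 3 injured groups. Lox, the founding enzyme of the family, spanned 77.2 to 311 CPM (median 168) in UIRI+Nx d7, 81.9 to 145 (median 109) in UIRI d7 and 55.4 to 105 (median 66.5) in UIRI d3 kidneys, against 11.2 to 18.2 CPM (median 12.4) in Control kidneys. All injured kidneys lay above all Control kidneys, with log2 fold changes of 3.73 (SE 0.28, edgeR adjusted p = 1.62e-10), 3.05 and 2.43.

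Loxl1, which is needed for elastic fibre upkeep, had a different order of groups, with medians of 64.4, 86.6 and 67.1 CPM in UIRI+Nx d7, UIRI d7 and UIRI d3 kidneys, against 25.5 CPM in Control kidneys. Its log2 fold changes were 1.47, 1.997 and 1.61. Loxl2, which acts on basement membrane collagen, had log2 fold changes of 2.40, 2.17 and 1.79, and Loxl3 of 1.97, 1.91 and 1.48, both without overlap of UIRI+Nx d7 and Control kidneys. Loxl3 overlaps Htra2 on the other strand, which held 17.8 CPM in UIRI+Nx d7 and 13.9 CPM in Control kidneys.

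Loxl4, which also crosslinks collagen, had its highest median on day 3. It spanned 1.15 to 5.32 CPM (median 3.78) in UIRI+Nx d7, 2.29 to 5.02 (median 2.84) in UIRI d7 and 3.93 to 11.2 (median 8.06) in UIRI d3 kidneys, against 0.807 to 2.43 CPM (median 1.2) in Control kidneys. UIRI d3 kidneys lay clear of Control kidneys and both day 7 groups overlapped them. The log2 fold change against Control was 1.35 (adjusted p = 0.00276) in UIRI+Nx d7, 1.23 (adjusted p = 0.00459) in UIRI d7 and 2.50 (edgeR adjusted p = 1.91e-06) in UIRI d3 kidneys.

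**Figure D2:**
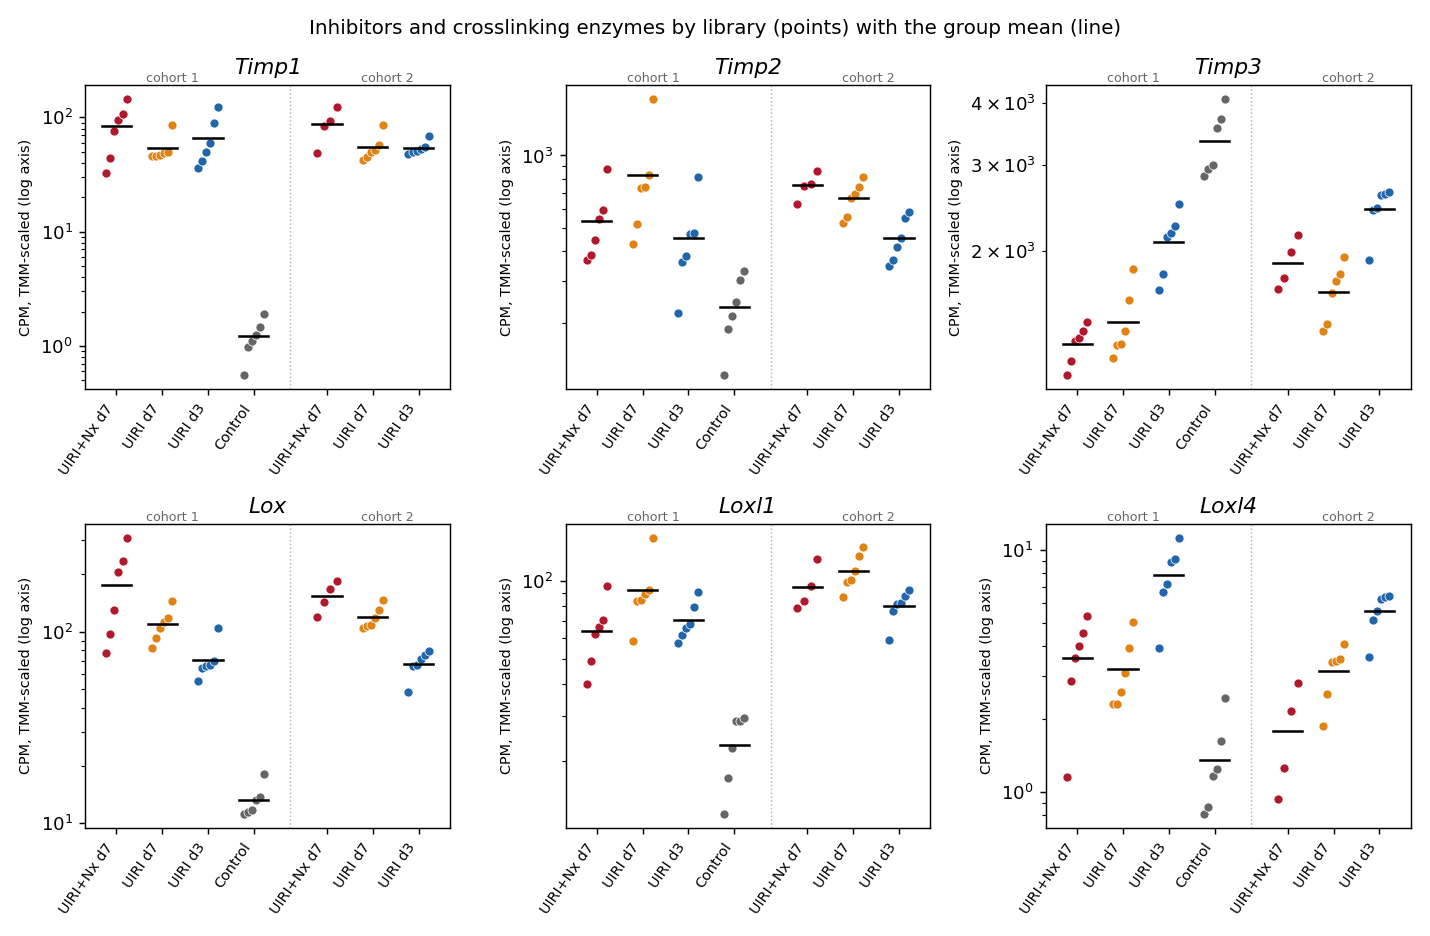
CPM (log axis) of Timp1, Timp2, Timp3, Lox, Loxl1 and Loxl4 in every library of both cohorts, a point per library and a line at each group mean. Timp1 lies between 32.6 and 146 CPM in injured kidneys of the first cohort and at or below 1.9 CPM in Control kidneys, whereas Timp3 lies below the Control range.

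Of the 14 Mmp genes tested, 11, 12 and 11 rose in UIRI+Nx d7, UIRI d7 and UIRI d3 kidneys against Control, and none fell. In UIRI+Nx d7 kidneys those with the largest changes were Mmp7, Mmp8, Mmp12, Mmp9, Mmp19 and Mmp3. Mmp7 (matrilysin), made mainly by epithelial cells, had the largest fold change of all 41 in both day 7 groups. It spanned 11.2 to 53.3 CPM (median 23.5) in UIRI+Nx d7, 8.37 to 45.2 (median 12.6) in UIRI d7 and 1.07 to 24.5 (median 2.5) in UIRI d3 kidneys, against 0.0369 to 0.346 CPM (median 0.176) in Control kidneys, where it rested on 16 counts in 6 libraries. The groups were far apart from Control, with log2 fold changes of 7.23 (SE 0.86, adjusted p = 2.85e-07), 6.88 (adjusted p = 3.9e-07) and 5.08 (edgeR adjusted p = 3.42e-05). Without UIRI d3 replicate 3 the last was 3.71.

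Mmp12 (macrophage elastase) was low on day 3 and higher on day 7. It spanned 12.7 to 32.3 CPM (median 19.6) in UIRI+Nx d7, 11.7 to 23.6 (median 17.9) in UIRI d7 and 1.92 to 7.94 (median 4.78) in UIRI d3 kidneys, against 0.738 to 2.18 CPM (median 1.39) in Control kidneys. Both day 7 groups lay above every day 3 and every Control kidney, and the day 3 range just reached into that of Control. The log2 fold change against Control was 3.96 (adjusted p = 3.58e-09) in UIRI+Nx d7, 3.71 (adjusted p = 6.06e-09) in UIRI d7 and 1.81 (edgeR adjusted p = 0.000181) in UIRI d3 kidneys. The 3′ end of Mmp12 overlaps that of Mmp1b on the other strand, which had 0 counts in every library.

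Mmp3 (stromelysin 1, which cuts proteoglycans and other MMPs) had medians of 6.02, 8 and 3.28 CPM in UIRI+Nx d7, UIRI d7 and UIRI d3 kidneys, against 0.82 CPM in Control kidneys, with log2 fold changes of 2.96, 3.37 and 2.68. Without UIRI d3 replicate 3 the last was 1.97. Mmp19, a secreted protease of basement membrane substrates, had medians of 10, 9.46 and 7.46 CPM in the same groups, against 0.992 CPM in Control kidneys and log2 fold changes of 3.29, 3.19 and 3.02. Its locus is shared with Tmem198b on the other strand, which held 7.54 CPM in UIRI+Nx d7 and 3.5 CPM in Control kidneys.

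Mmp2 (gelatinase A) and Mmp14, the membrane-bound protease that activates MMP2, both rose. Mmp14 spanned 127 to 204 CPM in UIRI+Nx d7, 127 to 237 in UIRI d7 and 90.1 to 167 in UIRI d3 kidneys, against 16.4 to 31.9 CPM in Control kidneys, without overlap. Its log2 fold changes were 2.72, 2.78 and 2.31 (edgeR adjusted p = 2.38e-10, 1.28e-10 and 2.2e-09). Mmp2 spanned 10.1 to 25.3 CPM in UIRI+Nx d7, 18.8 to 46.9 in UIRI d7 and 3.26 to 16.4 in UIRI d3 kidneys, against 2.51 to 4.33 CPM in Control kidneys, and its log2 fold changes were 2.49, 3.22 and 1.83.

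Mmp8 (neutrophil collagenase) and Mmp9 (gelatinase B, stored in neutrophil granules and made by macrophages) reached their highest single values in UIRI d3 replicate 3, the library rich in neutrophil markers. Mmp8 spanned 2.24 to 8.09 CPM (median 4.04) in UIRI+Nx d7, 1.38 to 4.42 (median 2.36) in UIRI d7 and 1.4 to 57.7 (median 3.89) in UIRI d3 kidneys, against 0 to 0.34 CPM (median 0.327) in Control kidneys, where it rested on 24 counts. The log2 fold change of Mmp8 was 4.20 (adjusted p = 0.000268), 3.51 (adjusted p = 0.00133) and 5.73 (edgeR adjusted p = 6.27e-06). Without UIRI d3 replicate 3 the last was 4.00. Mmp9 spanned 7.98 to 14.6 CPM, 6.58 to 19.5 CPM and 9.86 to 57.3 CPM in the same injured groups, against 0.34 to 1.53 CPM in Control kidneys, with log2 fold changes of 3.82, 4.19 and 4.64. Without UIRI d3 replicate 3 the last was 4.06.

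The summed level of the 8 neutrophil markers was 26.7 to 54.8 CPM in UIRI+Nx d7, 24 to 207 CPM in UIRI d7 and 44.4 to 2010 CPM in UIRI d3 kidneys, against 2.94 to 12.9 CPM in Control kidneys, where Mpo was at 0 in every library. Of the 6 of these markers tested, 4, 6 and 6 rose against Control. The part of neutrophil content in the levels of Mmp8 and Mmp9 was not tested.

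**Figure D3:**
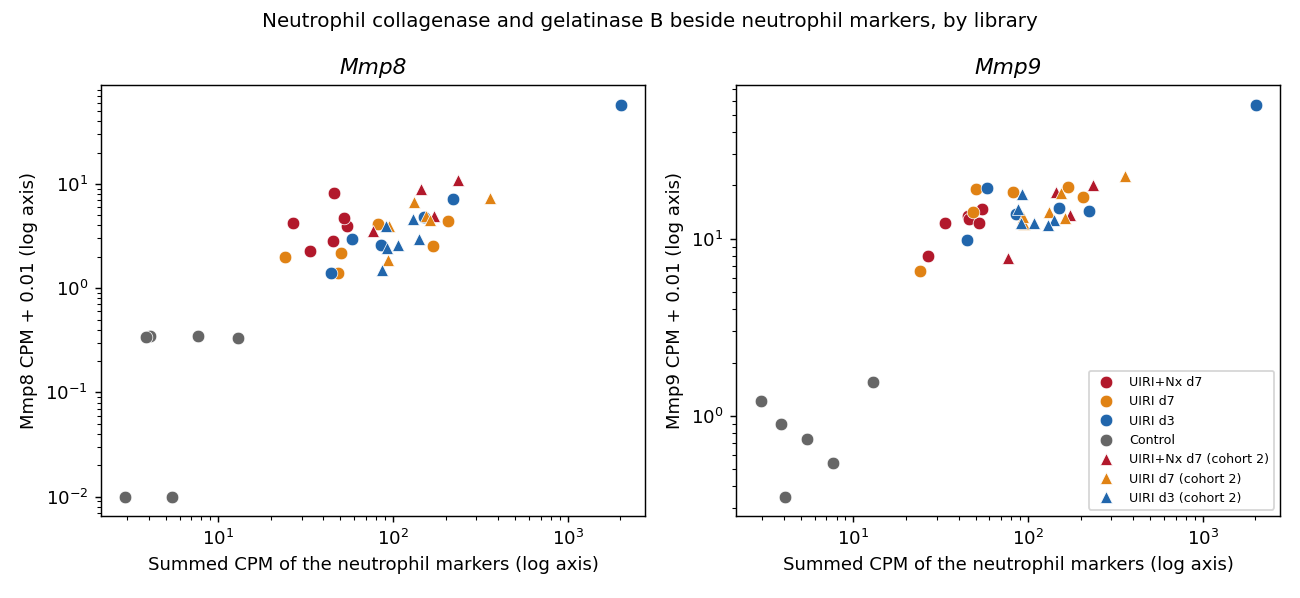
CPM of Mmp8 and Mmp9 (log axis, 0.01 CPM added) against the summed CPM of 8 neutrophil marker genes (log axis), a point per library. UIRI d3 replicate 3 stands at the upper right with 57.7 CPM of Mmp8, 57.3 CPM of Mmp9 and a marker sum of 2010 CPM, and the Control libraries lie at the lower left.

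Mmp3, Mmp7, Mmp8, Mmp12 and Mmp13 belong to a cluster of 9 Mmp genes within 7272514-7699585 of chromosome 9 (GRCm38), of which these 5 passed the filter. The first 4 rose in all 3 injured groups. Mmp13 (collagenase 3) lies in the same cluster and was called in none of the comparisons, with medians of 0.64, 1.5 and 1.37 CPM in UIRI+Nx d7, UIRI d7 and UIRI d3 kidneys, against 2.26 CPM in Control kidneys, and log2 fold changes of -1.12, -0.10 and -0.33. In 1 of the 12 fits that left out 1 library, the UIRI+Nx d7 value became a called fall of -1.74 (edgeR adjusted p = 0.0167).

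The promoters of 4 of these genes are shown because Mmp3, Mmp7 and Mmp12 rose while Mmp13, their neighbour, was not called, and because all 4 hold the letters known to be bound by AP-1, a family of transcription factors that stress signals activate. Each window runs from 250 bases before to 50 bases after the RefSeq start (GRCm38.p6, plus strand, 5′ to 3′), and capitals mark a match to TGANTCA. Mmp7 and Mmp12 each have a second RefSeq window, without a match, that is not shown.
Mmp3, chr9:7445572-7445871: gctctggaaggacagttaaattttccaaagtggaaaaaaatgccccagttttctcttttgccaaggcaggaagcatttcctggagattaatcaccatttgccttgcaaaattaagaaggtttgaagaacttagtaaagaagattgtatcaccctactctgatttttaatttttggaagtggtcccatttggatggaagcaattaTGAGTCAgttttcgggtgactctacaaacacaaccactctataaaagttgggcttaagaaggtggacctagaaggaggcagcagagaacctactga
Mmp7, chr9:7691840-7692139: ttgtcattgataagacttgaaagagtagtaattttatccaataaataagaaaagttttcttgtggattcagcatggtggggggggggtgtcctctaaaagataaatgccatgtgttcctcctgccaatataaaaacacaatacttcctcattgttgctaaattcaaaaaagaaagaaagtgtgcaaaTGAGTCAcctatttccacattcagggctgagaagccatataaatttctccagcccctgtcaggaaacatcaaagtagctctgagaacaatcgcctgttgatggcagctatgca
Mmp12, chr9:7347124-7347423: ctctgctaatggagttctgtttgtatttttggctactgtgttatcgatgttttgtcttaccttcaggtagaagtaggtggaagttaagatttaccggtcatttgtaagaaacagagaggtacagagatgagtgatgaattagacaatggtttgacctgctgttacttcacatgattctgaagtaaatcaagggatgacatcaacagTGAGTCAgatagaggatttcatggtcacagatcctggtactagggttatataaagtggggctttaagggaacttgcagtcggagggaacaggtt
Mmp13, chr9:7272264-7272563: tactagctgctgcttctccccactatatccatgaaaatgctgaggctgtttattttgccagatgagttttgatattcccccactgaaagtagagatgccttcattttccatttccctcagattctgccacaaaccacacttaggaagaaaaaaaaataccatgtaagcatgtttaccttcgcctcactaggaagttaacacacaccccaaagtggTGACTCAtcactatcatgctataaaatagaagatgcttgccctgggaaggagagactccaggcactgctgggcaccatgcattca

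Counted from the RefSeq start, the match begins at position -46 in Mmp3, -63 in Mmp7, -44 in Mmp12 and -35 in Mmp13. RefSeq windows were found for 36 of the 55 genes (39 windows). TGANTCA, searched on both strands, stood in 7 of the 39 windows, all in the chromosome 9 cluster (Mmp1b, Mmp3, Mmp7, Mmp10, Mmp12, Mmp13 and Mmp20), that is 17.9% against 7.81% of all 32851 windows. The ETS motif GGAAGT stood in 30.8% against 23.8% of all windows, and TATAAA in 28.2% against 13.6%. None of the 3 motifs contains another. The window of Mmp8, which lies in the same cluster and rose in all 3 injured groups, holds 0 matches to TGANTCA. A match is a description of the letters and not a site of binding, and the windows of Mmp13, not called, and of Mmp3, Mmp7 and Mmp12, called, share it.

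**Figure D4:**
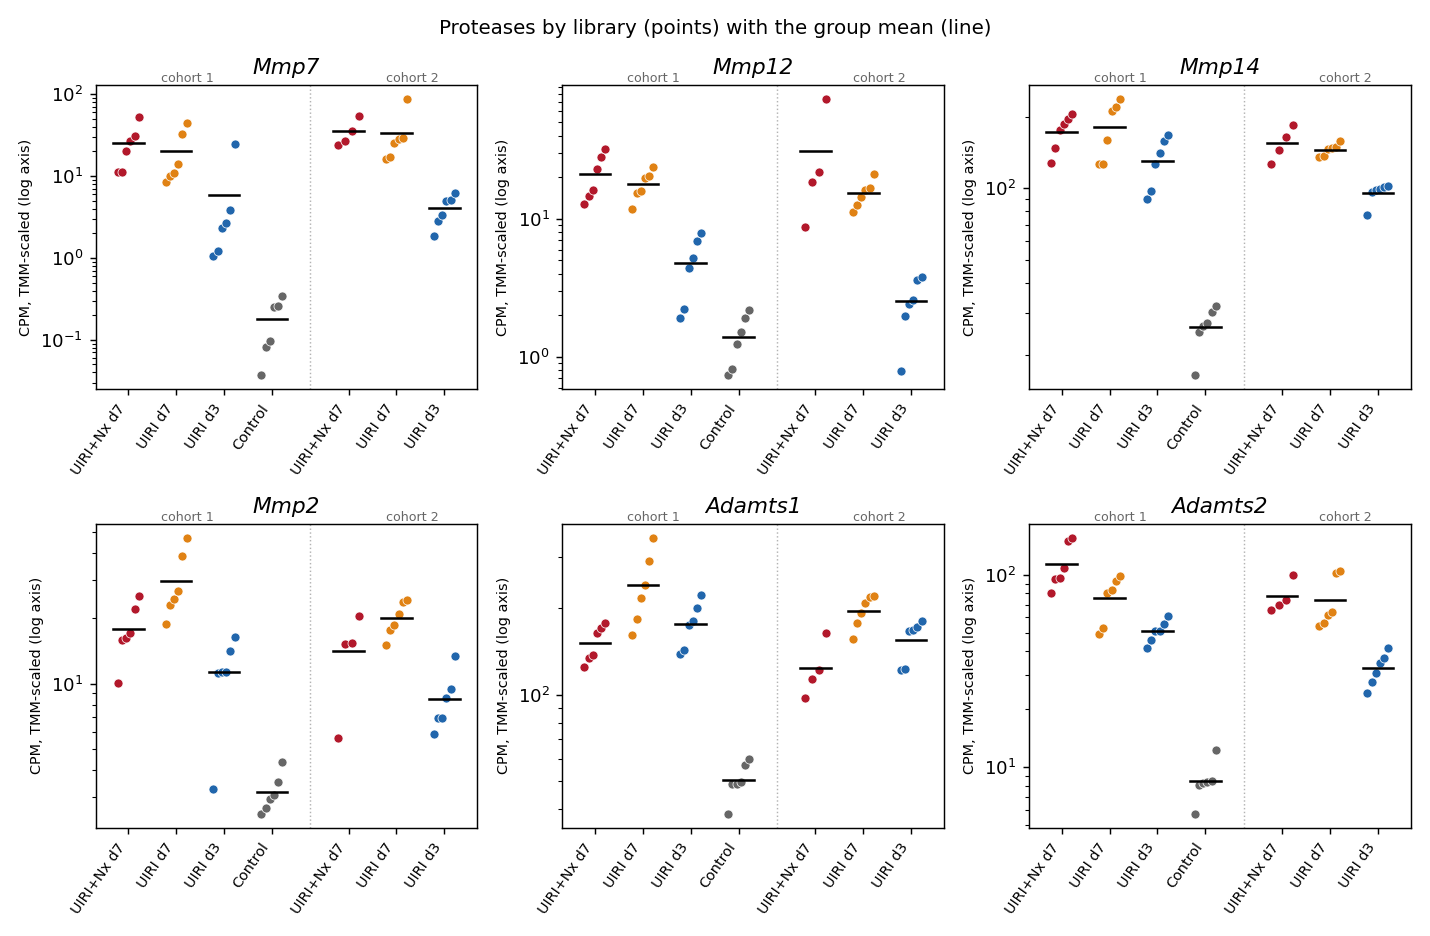
CPM (log axis) of Mmp7, Mmp12, Mmp14, Mmp2, Adamts1 and Adamts2 in every library of both cohorts, a point per library and a line at each group mean. Mmp12 lies between 11.7 and 32.3 CPM in the day 7 kidneys of the first cohort and between 1.92 and 7.94 CPM in its day 3 kidneys.

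Of the 14 Adamts genes tested, 7, 9 and 6 rose in UIRI+Nx d7, UIRI d7 and UIRI d3 kidneys against Control, and Adamts8 fell in UIRI+Nx d7 kidneys. Adamts2, which removes the N-terminal propeptide of fibrillar procollagens, spanned 80.1 to 156 CPM (median 102) in UIRI+Nx d7, 49 to 98.4 (median 81.8) in UIRI d7 and 41.7 to 61.1 (median 51.1) in UIRI d3 kidneys, against 5.69 to 12.3 CPM (median 8.3) in Control kidneys. It had the smallest adjusted p of the 41 genes in UIRI+Nx d7 kidneys, with log2 fold changes of 3.75 (SE 0.22, edgeR adjusted p = 2.42e-12), 3.16 and 2.58. All injured kidneys lay above all Control kidneys.

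Adamts1 and Adamts4, proteases that cut versican and aggrecan, also rose in all injured groups. Adamts4 had medians of 15.4, 14.9 and 23.4 CPM in UIRI+Nx d7, UIRI d7 and UIRI d3 kidneys, against 1.83 CPM in Control kidneys, and log2 fold changes of 2.96, 3.02 and 3.44. Adamts1 spanned 124 to 178 CPM (median 150) in UIRI+Nx d7, 160 to 350 (median 228) in UIRI d7 and 139 to 221 (median 177) in UIRI d3 kidneys, against 38.6 to 59.7 CPM (median 49.5) in Control kidneys, with log2 fold changes of 1.58, 2.25 and 1.80.

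Adamts5, a protease of the same substrates, lies beside Adamts1 on the minus strand of chromosome 16, Adamts1 at 85793827-85803113 and Adamts5 at 85856173-85901828 (GRCm38). Its log2 fold change against Control was 0.10 (adjusted p = 0.7) in UIRI+Nx d7, 0.67 (adjusted p = 0.0023) in UIRI d7 and 0.46 (edgeR adjusted p = 0.0384) in UIRI d3 kidneys, with overlap in each. Adamts17, a protease linked to fibrillin microfibrils, had log2 fold changes of 3.29 (adjusted p = 0.00118), 3.62 (adjusted p = 0.000313) and 1.78 (edgeR adjusted p = 0.0752). It rested on 185, 299 and 77 counts, against 27 in Control kidneys. Adamts8 fell in UIRI+Nx d7 kidneys, with a log2 fold change of -1.70 (edgeR adjusted p = 0.011) on 24 counts against 120 in Control kidneys, and was not called in the other injured groups.

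All 4 Adamtsl genes tested rose in UIRI+Nx d7 kidneys and 3 of them (Adamtsl1, Adamtsl4 and Adamtsl5) in UIRI d7 and UIRI d3 kidneys. Adamtsl4, which binds fibrillin microfibrils, had medians of 9.6, 5.62 and 5.66 CPM in UIRI+Nx d7, UIRI d7 and UIRI d3 kidneys, against 1.68 CPM in Control kidneys, and log2 fold changes of 2.43, 1.56 and 1.74. Adamtsl2, which binds fibrillin 1 and latent TGF-beta binding protein, spanned 20.9 to 80.8 CPM in UIRI+Nx d7, against 10.2 to 37 CPM in Control kidneys, with a log2 fold change of 1.01 (edgeR adjusted p = 0.0167). Its values were 0.69 (adjusted p = 0.0876) in UIRI d7 and 0.27 (adjusted p = 0.563) in UIRI d3 kidneys.

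A group of 7 genes passed in none of the comparisons with Control: Adamts6, Adamts9, Adamts14, Adamts15, Mmp13, Mmp16 and Timp4. Within the 2 numbered blocks that hold the groups, 22 and 22 genes rose and 2 and 1 fell in UIRI+Nx d7 against Control kidneys, where 17.9% and 10.9% of all genes were called. In UIRI d3 kidneys 20 and 21 rose and 0 fell, where 16.7% and 15.1% of all genes were called. In UIRI d7 kidneys 26 rose and 1 fell in the block that could be used, where 27.2% of all genes were called. Of the genes called, 26 of 31, 30 of 32 and 23 of 28 were called whichever library of the groups compared was left out. The others were Mmp11, Mmp17, Adamts10, Adamts12 and Adamtsl2 in UIRI+Nx d7, Mmp17 and Adamts12 in UIRI d7, and Timp2, Adamts5, Adamts7, Adamts12 and Adamtsl1 in UIRI d3 kidneys.

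Between day 7 and day 3 after UIRI without nephrectomy, the protease Mmp12, Mmp2 and, in the second cohort, a wider set of genes were higher on day 7, and Timp3 was lower. The first cohort called 2 higher and 2 lower of the 41, 9.76%, where 2.6% of all genes were called (1.24% higher, 1.36% lower). The second cohort called 11 higher and 1 lower, 29.3%, where 8.56% of all genes were called (4.51% higher, 4.05% lower). The median log2 fold change of the 41 was 0.3 and 0.41. The cohorts share no library, and Mmp12 and Mmp2 rose and Timp3 fell in both, but with the block as a covariate Timp3 was called in neither (-0.46 in the first, -0.38 in the second) and Mmp2 in the first alone. Day 7 kidneys of the first cohort had also had a sham operation, so that time and operation cannot be told apart.

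Mmp12 had a log2 fold change of 1.90 (SE 0.32, edgeR adjusted p = 0.00109) in the first and 2.62 (SE 0.42, adjusted p = 0.000508) in the second cohort. Mmp12 in the second cohort spanned 11.2 to 21.3 CPM (median 15.3) in UIRI d7 and 0.796 to 3.79 CPM (median 2.51) in UIRI d3 kidneys. The day 7 and day 3 kidneys did not overlap in either cohort. Mmp2 had a log2 fold change of 1.39 (SE 0.28, adjusted p = 0.0058) and 1.23 (edgeR adjusted p = 0.0036). It spanned 15 to 24.2 CPM in UIRI d7 and 5.84 to 13.4 CPM in UIRI d3 kidneys of the second cohort, again without overlap.

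Mmp7 rose in the second cohort, with 16.3 to 88.2 CPM (median 26.9) in UIRI d7 and 1.88 to 6.16 CPM (median 4.16) in UIRI d3 kidneys. The change was 3.05 on the log2 scale (SE 0.39, edgeR adjusted p = 6.31e-05), and it was 1.80 (adjusted p = 0.131) in the first cohort. Without UIRI d3 replicate 3 of the first cohort, which held 24.5 CPM against a group median of 2.5 CPM, the Mmp7 value there was 3.17 (edgeR adjusted p = 0.000827). Without that library and UIRI d7 replicate 4 the first cohort called 7 of the 41 in place of 4, with Mmp7 (2.97), Adamts7 (1.34) and Adamts16 (1.65) added. Leaving out this pair was chosen after seeing the data.

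Timp3 had a log2 fold change of -0.54 (SE 0.15, edgeR adjusted p = 0.0497) in the first and -0.56 (SE 0.13, adjusted p = 0.00837) in the second cohort. Timp3 in the second cohort spanned 1380 to 1950 CPM (median 1690) in UIRI d7 and 1910 to 2640 CPM (median 2520) in UIRI d3 kidneys, which overlapped slightly. In the first cohort the Timp3 call was lost when any of 8 libraries was left out. Loxl4 had a log2 fold change of -1.27 (edgeR adjusted p = 0.0298) in the first and -0.79 (adjusted p = 0.0568) in the second cohort, and the first was lost when any of 7 libraries was left out or with the block as a covariate (-1.03, adjusted p = 0.0916).

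The other genes that rose in the second cohort were Mmp3 (1.46, adjusted p = 0.00507), Adamts2 (1.17, 0.000442), Adamts7 (1.14, 0.00834), Lox (0.81, 0.000779), Adamts15 (0.65, 0.0205), Mmp14 (0.60, 0.0015), Timp2 (0.56, 0.0243) and Loxl1 (0.45, 0.0484), each with its log2 fold change and edgeR adjusted p. Lox spanned 105 to 146 CPM in UIRI d7 and 48.4 to 79.3 CPM in UIRI d3 kidneys, and Mmp14 135 to 158 CPM and 77.3 to 102 CPM, both without overlap. In the first cohort Lox had a log2 fold change of 0.62 (adjusted p = 0.244), Adamts2 of 0.58 (adjusted p = 0.137) and Mmp14 of 0.47 (adjusted p = 0.257).

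Macrophage markers moved the same way. Their sum spanned 1860 to 3460 CPM in UIRI d7 and 855 to 1330 CPM in UIRI d3 kidneys of the second cohort, and 7 of the 10 genes rose in each cohort. Of other lists, 0 and 1 of 8 fibroblast and 2 and 1 of 4 T and NK cell markers tested rose in the first and second cohorts. In the same order 1 and 3 of 8 proximal tubule, 0 and 2 of 4 loop and distal tubule and 0 and 1 of 4 collecting duct markers fell. The part of all these markers in the result was not tested. Within the single block of the first cohort that could be used, 3 UIRI d7 and 2 UIRI d3 libraries were compared. There 0 of 40 genes tested and 0% of all genes were called, and Mmp12 was 2.94 (edgeR adjusted p = 0.0798). In the single block of the second cohort that could be used, 5 of the 41 rose, where 1.27% of all genes were called. With the block as a covariate the second cohort called 7 of the 41 in place of 12, and Mmp2 (1.10), Timp2, Timp3, Loxl1 and Adamts15 were no longer called.

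Comparing UIRI+Nx d7 with UIRI d3 kidneys, 4 genes rose and 2 fell in the first cohort, 14.6% of the 41 against 5.13% of all genes (2.06% higher, 3.06% lower). In the second cohort 8 rose and 1 fell, 22% against 6.02% of all genes (2.97% higher, 3.04% lower). Mmp12, Mmp7, Lox and Adamts2 rose and Loxl4 fell in both cohorts. Time and the nephrectomy, done on day 3 in the first cohort, cannot be told apart here in either cohort. In the first cohort 3 of the 6 neutrophil markers tested fell (summed level 26.7 to 54.8 CPM in UIRI+Nx d7 and 44.4 to 2010 CPM in UIRI d3 kidneys) and 2 of the 10 macrophage markers rose. In the second, 3 of the 10 macrophage markers rose, and 4 of the 8 proximal tubule markers and 2 of the 4 T and NK cell markers tested fell. The part of these markers in the results was not tested.

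Mmp12 held 74, 8.78, 18.5 and 21.8 CPM in the UIRI+Nx d7 kidneys of the second cohort, all above the 0.796 to 3.79 CPM of UIRI d3 kidneys. The Mmp12 log2 fold change was 2.15 (SE 0.33, edgeR adjusted p = 0.000147) in the first and 3.60 (SE 0.45, adjusted p = 6.4e-05) in the second cohort. Without UIRI+Nx d7 replicate 1 of the second cohort, which held the 74 CPM, the second was 2.68. Mmp7 held 24.2, 27.2, 35.6 and 54.5 CPM in UIRI+Nx d7 kidneys, all above the 1.88 to 6.16 CPM of UIRI d3 kidneys, with log2 fold changes of 2.16 (adjusted p = 0.039) and 3.11 (edgeR adjusted p = 0.000116).

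Mmp7 in the first cohort was lost when any of 8 libraries was left out but was 3.53 (edgeR adjusted p = 0.000133) without UIRI d3 replicate 3. Lox held 142, 185, 120 and 167 CPM in UIRI+Nx d7 kidneys of the second cohort, all above the 48.4 to 79.3 CPM of UIRI d3 kidneys, with log2 fold changes of 1.30 (adjusted p = 0.00237) and 1.17 (edgeR adjusted p = 7.78e-05). Adamts2 held 65.8, 73.9, 69.6 and 99.3 CPM against 24.4 to 41.7 CPM, with log2 fold changes of 1.16 (adjusted p = 0.000625) and 1.24 (edgeR adjusted p = 0.000692). These genes were clear of the day 3 kidneys in every library of the second cohort.

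Loxl4 held 0.934, 2.16, 2.81 and 1.25 CPM in UIRI+Nx d7 kidneys of the second cohort, all below the 3.61 to 6.42 CPM of UIRI d3 kidneys. Its log2 fold change was -1.15 (edgeR adjusted p = 0.0356, lost when any of 8 libraries was left out) in the first and -1.59 (SE 0.30, adjusted p = 0.00252) in the second cohort. Timp3 fell in the first cohort, where the groups did not overlap, with -0.69 (edgeR adjusted p = 0.00653), and had -0.36 (adjusted p = 0.149) in the second. The remaining genes that rose in the second cohort were Mmp3 (1.49), Adamtsl2 (1.15), Timp2 (0.73) and Mmp14 (0.69). Within single blocks Mmp12 (3.41, edgeR adjusted p = 0.0135) and Mmp7 (3.41, adjusted p = 0.0177) each rose in 1 block of the first cohort, where 0.691% and 0.237% of all genes were called. In the block of the second cohort that could be used 6 genes rose and 1 fell, where 2.92% of all genes were called.

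Between injured kidneys with and without nephrectomy of the opposite kidney, few of these genes were called. Of the 41, 0 rose and 2 fell in edgeR in UIRI+Nx d7 against UIRI d7 kidneys of the first cohort, 4.88% against 6.62% of all genes (3.17% higher, 3.46% lower). In the second cohort 1 rose and 1 fell, again 4.88%, against 5.24% of all genes (2.58% higher, 2.66% lower). The share of these genes called was thus near that of all genes. At an unadjusted p under 0.05, 4 were higher and 6 lower in the first cohort, and 4 and 4 in the second. DESeq2 called 1 higher and 2 lower of 49 tested in the first cohort, and 1 and 1 of 47 in the second. The shares of all genes at these settings were not computed, so these counts cannot be set against them. The median log2 fold change of the 41 was -0.06 in the first cohort against -0.01 over all genes.

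Adamts1 fell in both cohorts. In the first it spanned 124 to 178 CPM (median 150) in UIRI+Nx d7 and 160 to 350 CPM (median 228) in UIRI d7 kidneys. In the second it held 113, 97.1, 121 and 163 CPM in UIRI+Nx d7 kidneys and spanned 156 to 219 CPM (median 199) in UIRI d7 kidneys. The groups overlapped at their edges in both cohorts. The log2 fold change was -0.67 (SE 0.18, edgeR adjusted p = 0.021) in the first and -0.65 (SE 0.16, adjusted p = 0.0219) in the second cohort. Of the 10 macrophage markers, 2 fell in each cohort in the same comparison, and their summed level spanned 1210 to 2240 CPM in UIRI+Nx d7 and 1540 to 3310 CPM in UIRI d7 kidneys of the first cohort. Of the 4 T and NK cell markers tested, 3 fell in each cohort, and the summed level of all 6 was 0.681 to 6.88 CPM in UIRI+Nx d7 and 8.58 to 28.5 CPM in UIRI d7 kidneys of the first cohort, and 1.32 to 5.4 CPM and 9.22 to 21 CPM in the second. Of the 4 collecting duct markers, 1 and 2 rose in the first and second cohorts. The part of these markers in the Adamts1 result, and in those below, was not tested.

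The Adamts1 call rested on single libraries in each cohort. In the first it was lost without UIRI+Nx d7 replicate 4 or UIRI d7 replicate 2, and when only the groups compared entered the fit, and in the second without UIRI+Nx d7 replicate 1 or 2 or UIRI d7 replicate 4. Within single blocks the value was -0.73 (edgeR adjusted p = 0.282) in the first cohort and -0.73 (adjusted p = 0.206) and -0.54 (adjusted p = 0.465) in the second.

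Its neighbour Adamts5 spanned 43.9 to 55.8 CPM (median 49.9) in UIRI+Nx d7 and 43.7 to 103 CPM (median 72.7) in UIRI d7 kidneys of the first cohort. The groups overlapped, and the log2 fold change was -0.57 (SE 0.17, edgeR adjusted p = 0.0411), a call lost in 10 of the 12 fits that left out 1 library and without the pair of libraries that stood apart (-0.45, adjusted p = 0.0919). The second cohort had Adamts5 at 49.3, 37.8, 44.3 and 39.8 CPM in UIRI+Nx d7 kidneys and 48.1 to 56.1 CPM in UIRI d7 kidneys, with a log2 fold change of -0.26 (edgeR adjusted p = 0.251).

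Adamtsl2 rose in the second cohort, with 30, 80.7, 57.5 and 64.1 CPM in UIRI+Nx d7 and 24.7 to 47.4 CPM (median 32.1) in UIRI d7 kidneys. Its log2 fold change was 0.81 (SE 0.23, edgeR adjusted p = 0.0439), lost in 8 of the fits that left out 1 library, and it was 0.31 (adjusted p = 0.643) in the first cohort.

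The inhibitors and crosslinking enzymes were not called between UIRI+Nx d7 and UIRI d7 kidneys in either cohort. Timp1 held 83.6, 93.5, 48.8 and 125 CPM in UIRI+Nx d7 kidneys and 42.2 to 86.5 CPM (median 51.1) in UIRI d7 kidneys of the second cohort, and its log2 fold change was 0.63 (SE 0.32, edgeR adjusted p = 0.267) in the first and 0.66 (SE 0.21, adjusted p = 0.0805) in the second. Without UIRI+Nx d7 replicate 3 of the second cohort it was 0.86 (edgeR adjusted p = 0.0109). Lox had 0.68 (adjusted p = 0.105) and 0.36 (edgeR adjusted p = 0.186), and 0.84 (adjusted p = 0.0272) in the first cohort without its UIRI+Nx d7 replicate 1. Timp3 had -0.15 (adjusted p = 0.652) and 0.20 (edgeR adjusted p = 0.482). A p above the threshold does not show that these levels were alike.

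**Figure D5:**
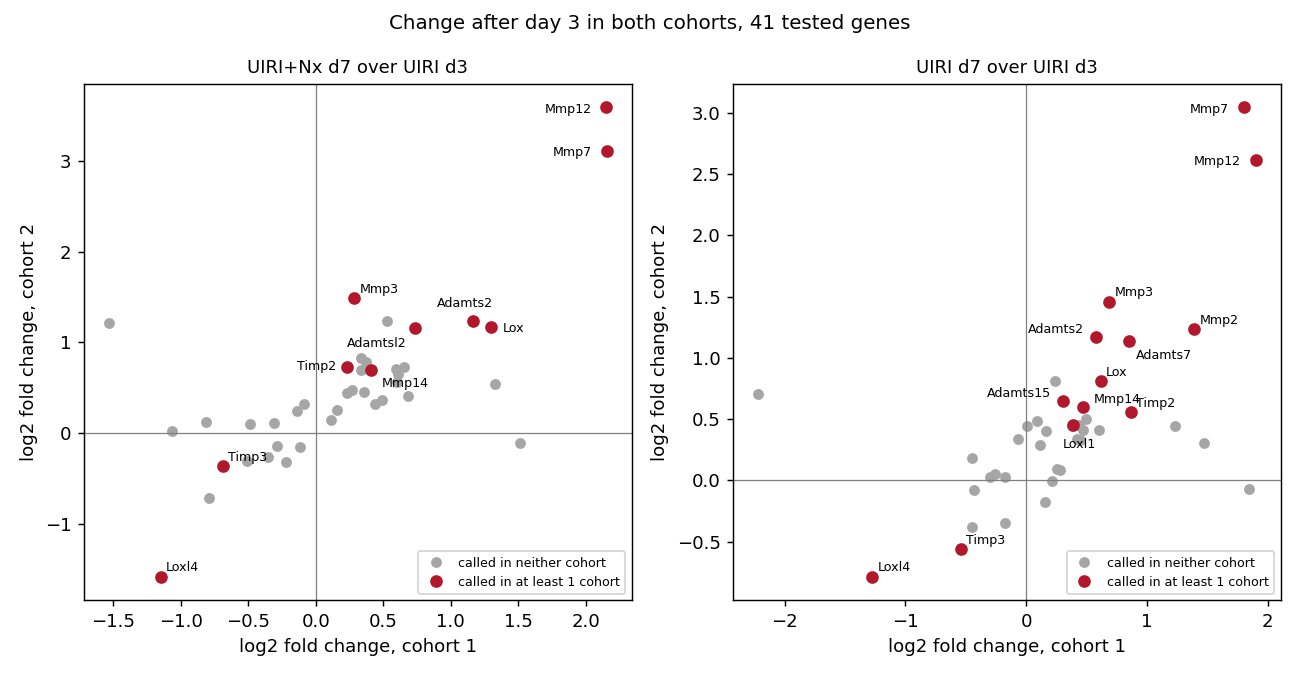
Log2 fold changes of the 41 tested genes in the first cohort (horizontal axis) and the second cohort (vertical axis), for UIRI+Nx d7 over UIRI d3 (left) and UIRI d7 over UIRI d3 (right), red where called in at least 1 cohort. Mmp12 and Mmp7 lie farthest to the upper right in both panels, and Loxl4 and Timp3 lie on the lower left.

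No gene of the 41 was called as different between the cohorts in any of these 3 comparisons (interaction term, both cohorts fitted together in edgeR over 16606 genes, 0 called). At an unadjusted p under 0.05 there were 0, 3 and 3 genes for UIRI+Nx d7 against UIRI d7, UIRI d7 against UIRI d3 and UIRI+Nx d7 against UIRI d3. DESeq2 also called 0. The smallest p was that of Mmp8, whose change from day 3 differed by -2.92 (edgeR adjusted p = 1) for UIRI d7 and by -2.74 (adjusted p = 0.521) for UIRI+Nx d7, first cohort minus second. In the first cohort the Mmp8 values were -2.22 and -1.53 with all libraries and -0.48 and 0.20 without UIRI d3 replicate 3.

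Genes that work with these proteases were counted over lists chosen for their function, with earlier results of these data known. Of 12 genes of the plasminogen system, whose protease plasmin activates several MMPs, 9 were tested, and 6 rose and 2 fell in each injured group against Control. Over all genes tested, 31.3%, 39.6% and 32.7% were called in UIRI+Nx d7, UIRI d7 and UIRI d3 kidneys against Control. The median log2 fold change of the 9 was 1.53 in UIRI+Nx d7, 1.70 in UIRI d7 and 1.59 in UIRI d3 kidneys. Plaur, the urokinase receptor, averaged 14.6 ± 4.79 CPM in UIRI+Nx d7 and 1.78 ± 0.406 CPM in Control kidneys (SD, n = 6 each; log2 fold change 3.01).

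Serpinf2, the inhibitor of plasmin itself, fell in every injured group against Control and in UIRI+Nx d7 against UIRI d7 kidneys. It averaged 17.2 ± 7.27 CPM in UIRI+Nx d7, 51.8 ± 20.6 in UIRI d7 and 60.1 ± 12.8 in UIRI d3 kidneys, against 168 ± 54.3 CPM in Control kidneys (SD, n = 6 each). Its log2 fold change between UIRI+Nx d7 and UIRI d7 kidneys was -1.58 (edgeR adjusted p = 0.00063) in the first and -1.85 (adjusted p = 0.000215) in the second cohort. It was the single gene of the plasminogen list called in that comparison in either cohort.

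Of 15 proteoglycans, hyaluronan genes and thrombospondins that include the substrates of ADAMTS proteases, 7 were tested and 6 rose in each injured group against Control. Over all genes tested, 17.3%, 21.5% and 17.8% rose in UIRI+Nx d7, UIRI d7 and UIRI d3 kidneys. Vcan (versican), the main substrate of ADAMTS1, averaged 30.5 ± 9.11 CPM in UIRI+Nx d7 and 7.55 ± 8.97 CPM in Control kidneys (SD, n = 6 each; log2 fold change 1.99, edgeR adjusted p = 0.000895). Cd44, the hyaluronan receptor, averaged 47.7 ± 4.27 CPM in UIRI+Nx d7, 107 ± 38.9 in UIRI d7 and 93.9 ± 22.6 in UIRI d3 kidneys, against 3.75 ± 1.06 CPM in Control kidneys (SD, n = 6 each). Between UIRI+Nx d7 and UIRI d7 kidneys Cd44 fell in both cohorts, with log2 fold changes of -1.17 (edgeR adjusted p = 0.00163) and -1.13 (adjusted p = 0.0096), and no other gene of this list was called there.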

How the data were processed

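The deposited values were whole-number counts per Ensembl gene in 41 columns, of which 40 were libraries put in groups. They came from 3′ end sequencing (QuantSeq 3′ FWD) of 500 ng of RNA, per the labels. The submitters' processing notes name Trimmomatic, STAR and HTSeq 0.6.1 with GRCm38 (mm10) for the first cohort and STAR 2.7.11b with GRCm39 for the second. Strand setting, annotation release and the second cohort's counting tool were not given in the sources used here. Reads of genes that overlap on opposite strands therefore could not be told apart, and groups of different cohorts were not compared in level. Groups came from the sample titles and treatment labels, and 1 deposited column of the second cohort, labelled UNDETERMINED, entered no comparison between groups. The table held 0 columns of other samples, and 360 of the 48795 gene identifiers had no symbol.

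Each cohort was fitted alone with all its groups in edgeR 4.0.16 (R 4.3.3, limma 3.58.1): TMM scaling, the filterByExpr filter (minimum count 10), the quasi-likelihood F test and Benjamini-Hochberg adjustment over all genes tested (15701 in the first cohort, 15543 in the second), with a threshold of 0.05. The difference between cohorts was tested in a joint fit. Standard errors were taken from the F statistic. CPM was computed from the deposited counts on scaled library sizes, and counting error limits values resting on few counts. The procedure was tested on simulated data with known changes. P-values measure the spread between libraries: mice are named as the replicates of the first cohort only, and for the second they may be technical.

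The Timp and Lox genes could be named in any comparison, with up to 6 Mmp, Adamts and Adamtsl genes in each direction by the largest change among those called, up to 3 genes per direction of each related list by the smallest adjusted p, and genes below the filter with their counts. A few genes outside this rule (such as Mmp13, Adamts15 and Vcan) were named after their values were seen. The members and the gene lists were chosen with earlier results of these data known. Alternatives tried were DESeq2 1.42.0, other scaling, no filter, only the groups compared, the library block or the replicate number as a covariate, and each library left out in turn. Blocks follow the sheet and library numbers of the deposited column headings.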

Additional observations from a re-analysis of the deposited data

Results flagged for a closer look

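Within groups of 4 or 6 libraries and a group mean of at least 1 CPM, 28 of 252 sets of values had a library beyond Dixon's 95% limit. The limit's rate of about 1 in 20 holds for independent, normally distributed values. These sets are of CPM without logs and share libraries, so the 28 cannot be read as an excess over that rate. All values are CPM, and no explanation was tested.

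UIRI d3 replicate 3 of the first cohort held 7 of them: it was the highest of its group for Mmp8 (57.7), Mmp9 (57.3), Mmp7 (24.5), Mmp3 (15.1), Lox (105) and Adamts7 (10.7) and the lowest for Adamts5 (43.9). These include neutrophil, epithelial and stromal protease genes, and the library also held the highest neutrophil marker sum, 2010 CPM. UIRI d3 replicate 6 was the highest for Mmp13 (3.38), a collagenase, and stood apart for Mmp15 (4.08), a membrane-bound MMP.

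In the UIRI+Nx d7 group of the first cohort, Adamtsl1 stood at 31.3 in replicate 3, Mmp9 at 7.98 in replicate 5 and Timp4 at 3.74 in replicate 6. In the UIRI d7 group, Timp2 (1720) and Adamts4 (26.5) stood apart in replicate 4, Adamtsl1 (30.0) in replicate 5 and Timp1 (85.8) in replicate 6. Among Control kidneys, Lox stood at 18.2 in replicate 6 and Loxl3 at 3.2 in replicate 4, both still below the values of the day 7 groups.

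In the second cohort, Adamts17 stood at 0.918 in UIRI+Nx d7 replicate 2. Mmp7 (88.2) and Timp1 (86.5) stood apart in UIRI d7 replicate 6, and Adamts10 (6.31) and Mmp13 (4.3) in UIRI d7 replicate 3. Among UIRI d3 kidneys, Adamtsl1 stood at 21.8 in replicate 1, Timp1 at 68.5 in replicate 3, Timp3 at 1910 in replicate 4, and Adamtsl2 (37.5) and Mmp14 (77.3) in replicate 6.

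A column labelled UNDETERMINED, deposited with the second cohort and put in no group by the labels, was above the highest Control library in 34 of the 41 tested genes, on plain library sizes. The label names no kidney and no condition, so the values of this column cannot be read as those of an injured kidney. The second cohort has no Control, so the Control libraries are those of the first cohort, processed with another genome build. The column held 57.0 CPM of Timp1, where the highest Control library held 1.63. The 7 genes not above Control were Adamts8, Adamts9, Adamts16, Mmp13, Mmp16, Timp3 and Timp4.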

How the results depend on the processing

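Counts of called genes are given here beside the reported count, which is out of 41 genes tested. The number tested differed between some alternatives, and the shares of all genes called under them were not computed. Leaving out 1 library at a time gave 27 to 32 called in UIRI+Nx d7 against Control (31 reported), 30 to 33 in UIRI d7 against Control (32) and 25 to 28 in UIRI d3 against Control (28). It gave 0 to 3 for UIRI+Nx d7 against UIRI d7 (2), 2 to 5 for UIRI d7 against UIRI d3 (4) and 4 to 6 for UIRI+Nx d7 against UIRI d3 (6). In the second cohort it gave 0 to 3 (2), 9 to 12 (12) and 9 to 12 (9) for the same comparisons, and 0 for each difference between cohorts. With only the 2 groups compared, UIRI+Nx d7 against UIRI d7 of the first cohort called 0 of 39 tested. It called 1 of 53 with no filter, and 1 of 41 with the replicate block or without the pair of libraries that stood apart. Without that pair, a choice made after seeing the data, UIRI d7 against UIRI d3 called 7. The second cohort called 1 of 38 for UIRI+Nx d7 against UIRI d7 with only the 2 groups compared. It called 7 of 41 for UIRI d7 against UIRI d3 with the library block as a covariate. The cause of these moves was not tested.

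DESeq2 called 33, 36 and 35 of 49 tested genes against Control in UIRI+Nx d7, UIRI d7 and UIRI d3 kidneys. Replicate numbers did not pair the samples: deviations of same-numbered libraries correlated between -0.424 and 0.447. With the replicate block 31, 31, 27, 1, 4 and 6 genes were called in the first cohort and 3, 11 and 10 in the second. Over 10225 values of single genes under the alternatives, 10014 kept their side of the threshold. Of the others 155 lost the call, 56 gained one and 0 reversed a call. Direction was compared only where a call was made, and the differences between cohorts are included. Genes with few counts, such as Mmp7 and Mmp8 in Control kidneys, have imprecise fold changes at this depth.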

Other observations

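Of 35 genes that fold, trim and assemble collagen and elastic fibres, 34 were tested against Control: 18 rose and 4 fell in UIRI+Nx d7, 18 rose and 2 fell in UIRI d7, and 15 rose and 1 fell in UIRI d3 kidneys (edgeR, adjusted p under 0.05). In the same comparisons 31.3%, 39.6% and 32.7% of all genes tested were called. The median log2 fold change of the 34 was 0.66, 0.75 and 0.63. Ltbp2, a microfibril protein, averaged 19.5 ± 10.5 CPM in UIRI+Nx d7 and 0.873 ± 0.347 CPM in Control kidneys (SD, n = 6 each), with a log2 fold change of 4.45. Fbn1, which forms the microfibrils, averaged 122 ± 62.8 CPM and 18.7 ± 2.62 CPM in the same groups (SD, n = 6 each), with a log2 fold change of 2.71. Fmod, a small proteoglycan that binds collagen, fell in all 3 injured groups, with log2 fold changes of -1.43, -1.42 and -1.57. Between UIRI+Nx d7 and UIRI d7 kidneys, P3h2, a collagen prolyl hydroxylase, fell by 1.09 (adjusted p = 0.00216) in the first cohort and by 0.62 (edgeR adjusted p = 0.0212) in the second on the log2 scale.

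Of 33 other matrix-degrading proteases, sheddases and their inhibitors, 31 were tested against Control: 15 rose and 4 fell in UIRI+Nx d7, 13 rose and 3 fell in UIRI d7, and 12 rose and 3 fell in UIRI d3 kidneys. The shares of all genes called were 31.3%, 39.6% and 32.7% in the same order. Ctss (cathepsin S), a lysosomal protease of macrophages, averaged 325 ± 142 CPM in UIRI+Nx d7 and 37.6 ± 8.08 CPM in Control kidneys (SD, n = 6 each), with a log2 fold change of 3.11. The meprins of the proximal tubule brush border went the other way. Mep1a averaged 351 ± 124 CPM in UIRI+Nx d7 and 1440 ± 107 CPM in Control kidneys, and Mep1b 1.85 ± 2.86 CPM and 115 ± 56.1 CPM (SD, n = 6 each), with log2 fold changes of -2.03 and -5.89. Summed proximal tubule markers fell alongside, as given above, and their part was not tested.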
